A study of Homo sapiens with 12 samples.

Results

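The comparison described here sets the 3 RNA-seq libraries of HaCaT cells carrying a short hairpin RNA against UTX (shUTX) against the 3 libraries of HaCaT cells carrying a control hairpin (shControl). They are 6 of the 12 libraries of the series and were chosen by their labels, not by any measured value. Each derivative gave 3 libraries: untreated, after 24 h of hydrogen peroxide (H2O2) at 100 µM, and after 24 h of nanoparticles of cerium oxide (CeO2) at 25 µg/mL. Every combination of derivative and treatment had 1 library, so the treatment served as the block and the 3 libraries of a derivative served as its replicates. The other 6 libraries, of derivatives with hairpins against MLL1 or NRF2 (shMLL1, shNRF2), shared the estimate of the spread and gave a second reference. HaCaT is an established, spontaneously immortalised line of human keratinocytes. The labels give neither the hairpin's sequence nor how many derivatives were made with it, so an effect of the hairpin and any other difference between these derivatives cannot be told apart. They also do not say whether the libraries came from separate cultures. The p-values measure only the spread left among the 12 libraries once derivative and treatment are fitted, not that between repeats of a condition. A response to treatment that differs between derivatives counts in that spread.

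UTX, the product of KDM6A on the X chromosome, removes methyl groups from lysine 27 of histone H3, a mark that Polycomb complexes lay down on silent developmental genes. It is also a subunit of the MLL3/MLL4 complexes, which methylate lysine 4 of histone H3 at enhancers, and it has functions there that do not need the demethylase activity. In epidermis, Polycomb and the H3K27 demethylases are known for their part in holding back and then releasing differentiation genes.

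The deposited values were read counts for 61498 entries, of which 10800 passed a filter of 1 CPM (counts scaled to a library total of 1e+06) in at least 3 libraries. Total counts ran from 5388335 to 6523243 in the shUTX libraries and from 6873380 to 7342021 in the shControl libraries. Names and reads match in 5 stretches of GRCh38, at 218241 to 44820428 of chromosome 5, 19375715 to 37801437 of chromosome 9, 236546 to 842545 of chromosome 11, 3247481 to 12344320 of chromosome 18 and 867630 to 6393981 of chromosome 19, and in the mitochondrial genome. Genes are named below from these stretches only, which hold 1587 entries, 488 of them tested, except for KDM6A. CPM values below are scaled to the TMM-adjusted total of each library and given in the order untreated, H2O2, CeO2. They are not divided by transcript length, so they compare libraries for 1 gene and not genes with each other.

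One of the 6 libraries stood apart. Its log2 CPM, taken relative to each gene's mean over the 12 libraries, fell with transcript length over the coding genes of the stretches. For each doubling of length this relative level changed by -0.19 in the untreated shControl library and by 0.03 and 0.06 in the exposed ones. In the shUTX libraries the slopes were 0.10, 0.12 and 0.09. The untreated shMLL1 library had a similar slope of -0.18. Counts over the gene lists and stretches that change without the untreated shControl library are given both ways.

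The entry that bears the name of the targeted gene came first. KDM6A (chromosome X, 44873177 to 45112602) held 1, 0 and 1 counts in shUTX cells, against 6, 5 and 6 counts in shControl cells. The pooled ratio was 0.144 with an exact 95% interval of 0.0162 to 0.607, which covers counting error only. The entry held 4 to 5 counts in each library of the other knockdowns. KDM6A lies outside the stretches where names and reads match, so the reads under this name cannot be taken as those of KDM6A. The counts are also close to the limit that a count of 0 allows (3 counts, or 0.526 CPM in the H2O2-exposed shUTX library). The entry goes in the direction of the label but cannot test it, and the knockdown was not checked here.

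Markers of cell identity within the stretches were checked next. All 3 epithelial markers (AQP3, PKP3 and the epidermal RNA TINCR) had counts in every library, with a summed level of 1868 to 1910.4 CPM in shUTX cells and 1931 to 2833 CPM in shControl cells. Most of that sum was PKP3, at 1615 to 1640 CPM in shUTX cells and 1728 to 2535 CPM in shControl cells. The members differed in direction: TINCR was higher in shUTX cells and the AQP3 groups overlapped. The single endothelial marker TEK, the melanocyte marker SLC45A2 and the stromal markers C7, EGFLAM and CCL21 had at most 1 count in any of the 6 libraries. Of 4 genes listed as lymphocyte markers, CD72 had at most 2 counts and SIT1 none, while IL7R and FYB1 were well covered. Their summed level was 410.3 to 496 CPM in shUTX cells and 938 to 1131 CPM in shControl cells. The common keratin and TP63 entries lie outside the stretches and were not read.

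Between shUTX and shControl, 195 of the 488 named entries passed the threshold (edgeR quasi-likelihood test, adjusted p under 0.05 over all 10800 entries), which is 40% and compares with 26.3% of all entries tested. Of these, 74 were higher in shUTX cells (15.2%, against 12.6% of all entries) and 121 were lower (24.8%, against 13.7%). In 189 of the 195 the 3 shUTX libraries did not overlap the 3 shControl libraries, and over all 488 entries 49.2% did not overlap. The sign was the same under all 3 treatments for 193 of the 195. The calls were made with these same libraries, so both counts describe the called entries and are no further evidence. The share without overlap over all 10800 entries was not taken. The decreases were the larger: their median log2 change was -0.81, and 39 of them reached 2-fold and 12 reached 4-fold. The increases had a median of 0.53, with 12 at 2-fold or more and 5 at 4-fold or more. Without the untreated shControl library 220 of 485 entries passed (45.4%, against 28.7% of all entries), 106 of them higher and 114 lower, so the excess of decreases was much smaller there. A fit to the 6 libraries alone, with 2 residual degrees of freedom, called 117 of 470, of which 37 were higher and 80 lower. Over all entries that fit called 1427 of 10132, of which 610 were higher and 817 lower. With the length trend described above removed from each library, 206 passed (42.2%, against 26.6% of all entries). Of these, 80 were higher (16.4%, against 12.8%) and 126 lower (25.8%, against 13.8%). The trend was removed from entries of the 5 stretches only. The shares over all entries of that fit thus come mostly from uncorrected entries and are not a like comparison.

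**Figure D1:**
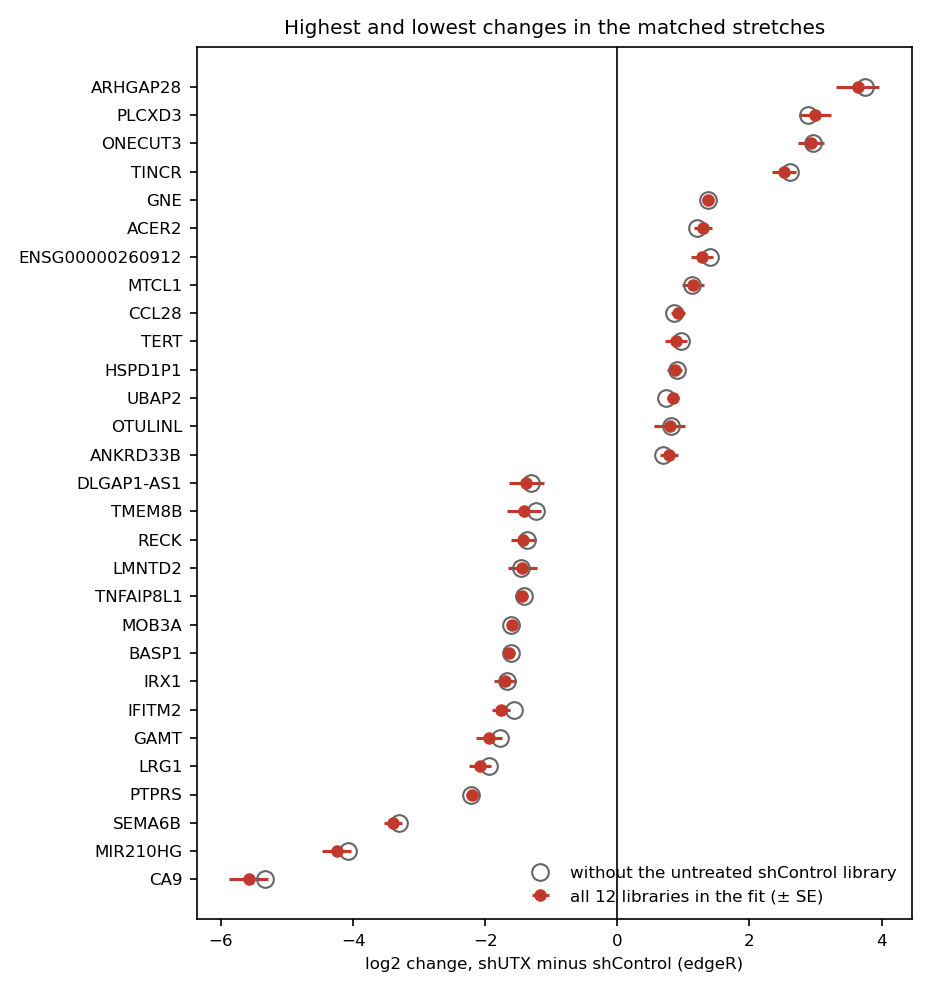
Log2 change of shUTX over shControl (x axis) for 14 of the 15 highest entries and the 15 lowest that passed the threshold, with filled points and bars for the estimate and its standard error (SE) from all 12 libraries and open circles for the estimate without the untreated shControl library. All entries drawn lie on the same side of 0 in both, from -5.58 (CA9) to 3.64 (ARHGAP28).

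The lowest values belonged to 2 genes known as targets of the hypoxia-inducible factors. CA9, which encodes carbonic anhydrase IX, a cell-surface enzyme that regulates pH (chromosome 9, 35673856 to 35681159, plus strand), held 0.575, 0.877 and 1.42 CPM in shUTX cells, against 59.1, 44.9 and 40.8 CPM in shControl cells. The shUTX libraries held only 3, 5 and 9 reads of it, and every shControl library lay far above them. The decrease was 47.9-fold (log2 -5.58 ± 0.29 SE, edgeR adjusted p = 8.31e-09). CA9 overlaps ARHGEF39 on the other strand, and whether the counting used strand is not given, so reads of the pair cannot be told apart. MIR210HG, the host transcript of the hypoxia-induced microRNA miR-210 (chromosome 11, 565660 to 568457, minus strand), held 1.73, 2.98 and 1.89 CPM in shUTX cells, against 52.1, 40.9 and 34.9 CPM in shControl cells. Its groups did not overlap either, with a 19-fold decrease (log2 -4.25 ± 0.22 SE, edgeR adjusted p = 6.16e-09). In the other knockdowns CA9 held 1.71 to 6.34 CPM and MIR210HG 3.29 to 11.1 CPM, so shControl cells were the high group in the series and shUTX cells the low one. Against the mean of shMLL1 and shNRF2 the decreases in shUTX cells were smaller but also passed the threshold, at log2 -1.80 for CA9 (edgeR adjusted p = 0.00263) and -1.47 for MIR210HG (edgeR adjusted p = 0.000428).

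The promoters of this pair are shown because both genes carry ACGTG, a core sequence that hypoxia-inducible factors bind. They are the 250 bases before and 50 after the RefSeq start in GRCh38.p14, printed 5′ to 3′ on the gene's strand with the match in capitals. CA9 is at chr9:35673678-35673977 on the plus strand and MIR210HG at chr11:568408-568707 on the minus strand.
CA9: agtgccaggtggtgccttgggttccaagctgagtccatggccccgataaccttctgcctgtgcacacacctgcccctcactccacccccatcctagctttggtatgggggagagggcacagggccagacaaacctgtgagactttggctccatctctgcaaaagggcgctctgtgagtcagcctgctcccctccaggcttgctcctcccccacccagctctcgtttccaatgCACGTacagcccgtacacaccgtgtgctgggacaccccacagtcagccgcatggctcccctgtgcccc
MIR210HG: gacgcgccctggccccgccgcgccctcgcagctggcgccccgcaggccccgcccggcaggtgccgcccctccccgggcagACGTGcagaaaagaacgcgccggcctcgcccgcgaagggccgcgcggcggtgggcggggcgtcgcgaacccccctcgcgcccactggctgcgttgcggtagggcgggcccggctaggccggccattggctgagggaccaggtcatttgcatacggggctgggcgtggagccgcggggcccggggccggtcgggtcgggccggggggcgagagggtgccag
The CA9 match lies on the other strand and begins 18 bases before the start, and the MIR210HG match begins 170 bases before it. The windows differ in base composition, with 7 CpG pairs in CA9 and 44 in MIR210HG. ACGTG was searched on both strands, and a CACGTG run, which holds it on both, marked its promoter once. It occurred in 21.4% of the 35116 promoters in the table and in 26.3% of the 315 coding genes with a promoter that were tested here. Among the genes called higher in shUTX cells 27.8% of 54 had it, among those called lower 22.2% of 81, and among those not called 27.8% of 180. Differences between these shares were not tested, and no sequence other than ACGTG was searched. A match is a description of these letters only.

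**Figure D2:**
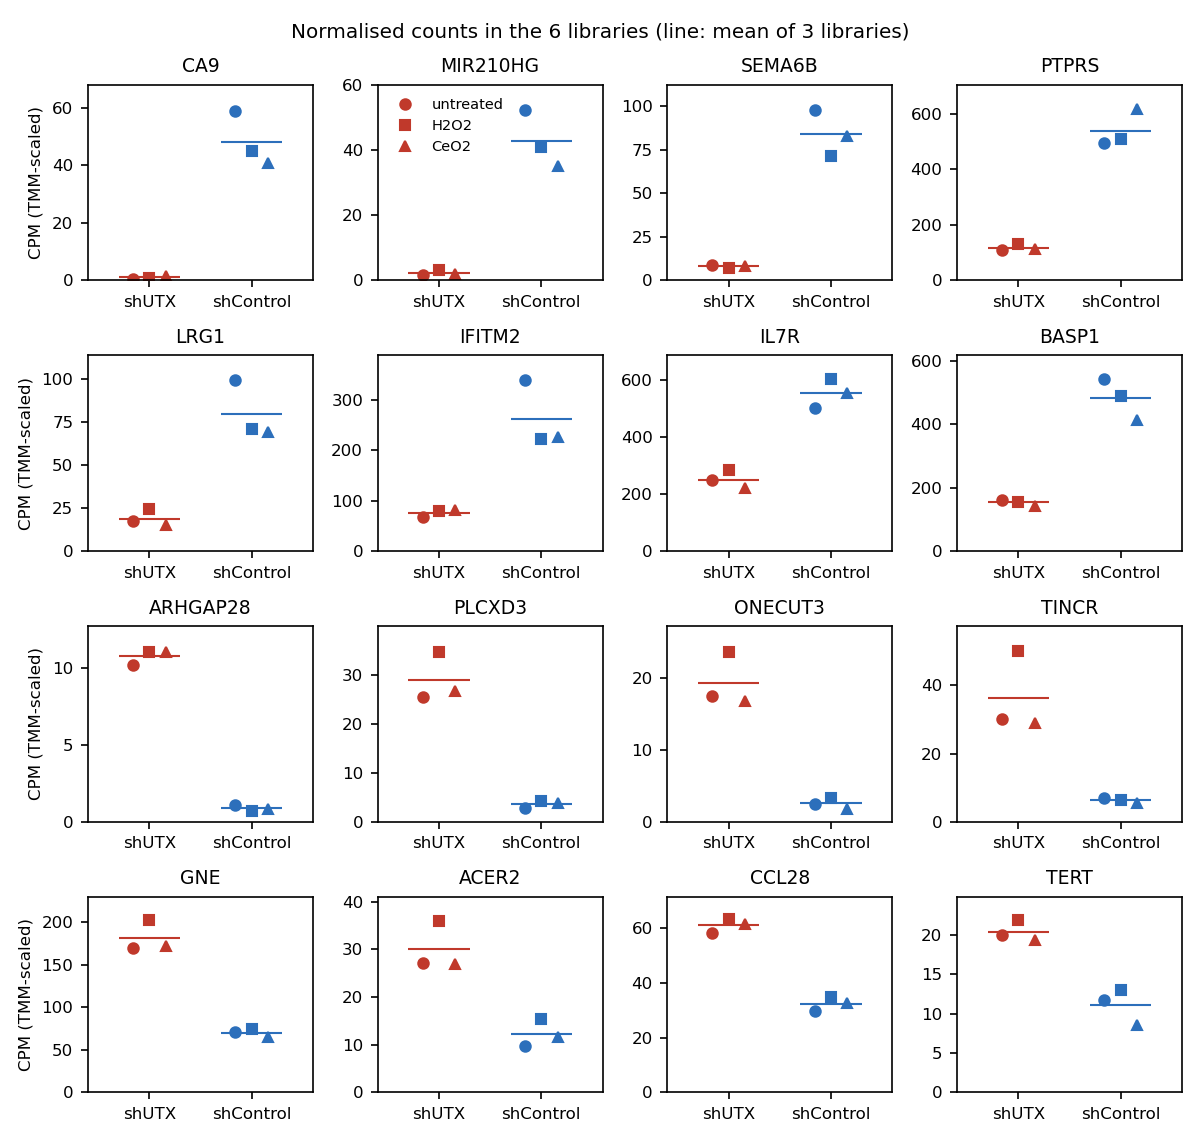
TMM-scaled CPM (y axis, a scale of its own in each panel, from 0) of 16 genes in the 3 shUTX libraries (left) and the 3 shControl libraries (right), with the treatment as symbol and the mean of 3 libraries as a line. In all 16 panels the 2 groups do not overlap; the untreated shControl library is the highest of its group for CA9, MIR210HG, SEMA6B, LRG1, IFITM2, BASP1, ARHGAP28 and TINCR.

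Genes of axon guidance and neurite growth, which epithelial cells also use for contact and movement, formed the list with the lowest median after the hypoxia pair. Of 7 tested members 4 fell and none rose, with a median log2 change of -1.14. Over all named entries 24.8% fell and 15.2% rose, with a median of -0.07. The counts of each list below stand beside these shares. SEMA6B, a transmembrane semaphorin (chromosome 19, 4542593 to 4559808, minus strand), held 8.63, 7.02 and 8.19 CPM in shUTX cells, against 97.6, 71.4 and 82.5 CPM in shControl cells. Every shUTX value lay far under the lowest shControl value, a 10.5-fold decrease (log2 -3.39 ± 0.14 SE, edgeR adjusted p = 5.49e-10). PTPRS, a receptor tyrosine phosphatase that binds heparan and chondroitin sulfate proteoglycans, held 110.3, 129 and 112 CPM in shUTX cells, against 495, 509 and 617 CPM in shControl cells (log2 -2.20 ± 0.09 SE, edgeR adjusted p = 5.49e-10). BASP1, a membrane-bound protein of growth cones, held 162, 155 and 142 CPM in shUTX cells, against 542, 490.3 and 413 CPM in shControl cells. SEMA5A, a semaphorin with thrombospondin repeats, held 86.3, 119 and 92.4 CPM in shUTX cells, against 161, 229.6 and 269.7 CPM in shControl cells (log2 -1.14 ± 0.13 SE, edgeR adjusted p = 1.80e-05). The members that did not pass were TRIO (log2 0.10), MYO10 (0.07) and PTPRM (-0.12). The other knockdowns separate these genes: SEMA6B stayed lower in shUTX cells than in them (39.6 to 51.5 CPM), as did PTPRS (291 to 671 CPM), whereas BASP1 (133 to 202 CPM) and SEMA5A (31.7 to 230.1 CPM) differed from their mean by log2 -0.04 and 0.10 with edgeR adjusted p = 0.749 and 0.574.

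SEMA6B had neighbours that also fell. Within 250 kb of its start, a window drawn after the values had been seen, 18 entries were tested, of which 8 were lower in shUTX cells, none was higher and 10 did not pass. Over the whole stretch on chromosome 19 47 of 158 were lower, and the window was centred on a gene chosen for its decrease, so its count is a description. LRG1, which encodes a secreted leucine-rich glycoprotein known from inflammation and vessel growth, starts 19.3 kb away and held 17.5, 24.2 and 14.8 CPM in shUTX cells, against 99.2, 70.9 and 69.2 CPM in shControl cells. PLIN4, a lipid-droplet coat protein that starts 41.3 kb away, held 1.73, 0.702 and 1.57 CPM in shUTX cells, against 7.43, 6.26 and 7.38 CPM in shControl cells. TNFAIP8L1, on the other side and 79.7 kb away, held 46.6, 43.5 and 49.3 CPM in shUTX cells, against 141, 109 and 132 CPM in shControl cells. Beyond that distance no change in the window reached 2-fold: ENSG00000280239, ENSG00000269318, UBXN6 and HDGFL2 were lower by log2 -0.90, -0.72, -0.55 and -0.47, and CHAF1A, MYDGF, DPP9 and FEM1A did not pass, at log2 0.04, -0.11, 0.08 and 0.31. PLIN4 overlaps HDGFL2, and TNFAIP8L1 overlaps MYDGF, on the other strand, so those pairs are uncertain.

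**Figure D3:**
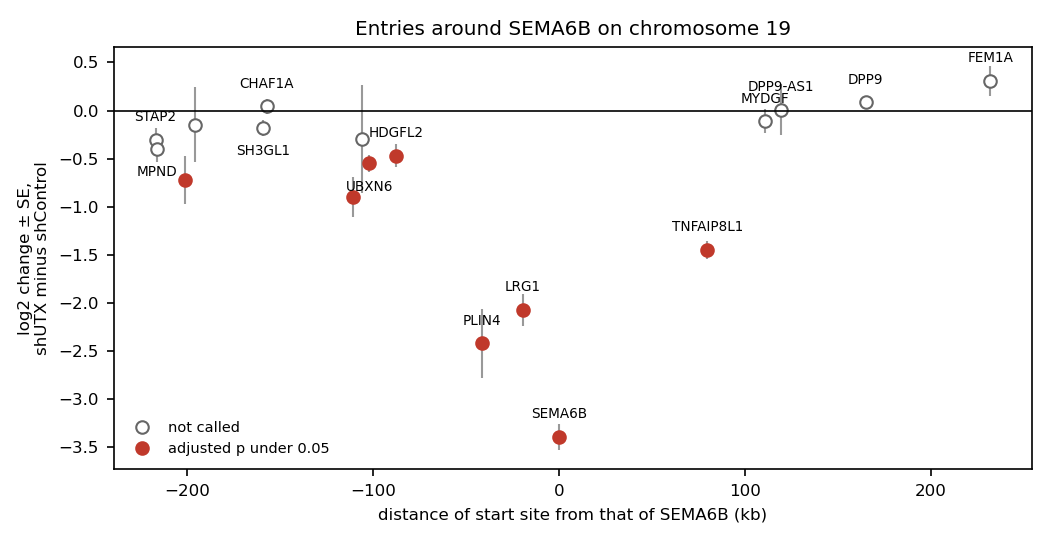
Log2 change of shUTX over shControl with its SE (y axis) against the distance of each entry's start from that of SEMA6B in kb (x axis), for the 18 tested entries within 250 kb. Filled points passed the threshold; the lowest 4, PLIN4, LRG1, SEMA6B and TNFAIP8L1, lie between -41.3 and 79.7 kb.

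Among developmental transcription factors, of which 13 were tested, 1 rose and 3 fell, with a median log2 change of -0.02; without the untreated shControl library 3 rose and 3 fell. ONECUT3, a homeobox factor of endoderm and neural tissue, held 17.5, 23.7 and 16.8 CPM in shUTX cells, against 2.48, 3.33 and 1.81 CPM in shControl cells, with no overlap (log2 2.93 ± 0.20 SE, edgeR adjusted p = 1.21e-07). The homeobox factor IRX1 held 7.48, 9.30 and 8.19 CPM in shUTX cells, against 30.5, 27.3 and 24.2 CPM in shControl cells (log2 -1.70 ± 0.17 SE, edgeR adjusted p = 6.11e-06). Of its cluster neighbours 1 fell and 1 did not pass. IRX4 fell to 90.4, 87.6 and 77.0 CPM in shUTX cells, against 192, 134 and 124 CPM in shControl cells (log2 -0.81 ± 0.11 SE), while IRX2 held 262, 247 and 245 CPM in shUTX cells, against 279, 197 and 191 CPM in shControl cells, and did not pass (log2 0.19 ± 0.10 SE, edgeR adjusted p = 0.207). Without the untreated shControl library the IRX2 change was log2 0.33 and passed (edgeR adjusted p = 0.00279). RFX2, a winged-helix factor of ciliated cells, held 59.1, 56.5 and 55.3 CPM in shUTX cells, against 124, 102 and 106 CPM in shControl cells (log2 -0.95 ± 0.09 SE). The broadly expressed factors TCF3, NFIC and KLF16 did not pass, at log2 -0.16, -0.02 and 0.20.

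Chromatin modifiers and readers moved in both directions. Of 18 tested, 5 were higher and 5 lower in shUTX cells, with a median log2 change of 0.05. The counts were 7 higher and 4 lower without the untreated shControl library, and 2 higher and 5 lower with the length trend removed. BRD9, a bromodomain subunit of a SWI/SNF complex, held 194, 197 and 206 CPM in shUTX cells, against 149, 149 and 155 CPM in shControl cells (log2 0.40 ± 0.08 SE). KDM4B, a demethylase of H3 lysine 9, held 75.2, 96.9 and 87.4 CPM in shUTX cells, against 122, 121 and 123 CPM in shControl cells (log2 -0.50 ± 0.09 SE). The zinc-finger protein ZNF131 and the ubiquitin-proteasome regulator MIDN were also higher, at log2 0.43 and 0.31, and ATOSB was lower, at -0.86. DOT1L, the methyltransferase of H3 lysine 79, and CHAF1A, which loads histones at replication, did not pass, at log2 0.06 and 0.04. The call of BRD9 was lost when a trend with transcript length was removed from each library (log2 0.22, edgeR adjusted p = 0.0546).

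Co-repressors and regulators of morphogens had 4 of 9 lower and none higher, beside 24.8% and 15.2% of all named entries. Their median was -0.34, and 3 were lower without the untreated shControl library. The Groucho-family gene TLE5 (also AES) held 589, 625 and 606 CPM in shUTX cells, against 1261, 815 and 856 CPM in shControl cells (log2 -0.66 ± 0.12 SE, edgeR adjusted p = 0.000976). TLE2, a full-length family member, held 3.26, 3.51 and 3.46 CPM in shUTX cells, against 7.58, 5.86 and 4.73 CPM in shControl cells, and its call was lost without the untreated shControl library (edgeR adjusted p = 0.102). TLE6, a shorter family member, was nearly unread in shUTX cells, with 1, 0 and 1 counts, against 14, 13 and 19 counts in shControl cells, a pooled ratio of 0.0533 (exact 95% interval 0.00627 to 0.204, counting error only). The other knockdowns held 7 to 19 counts of it. APC2, a relative of the Wnt regulator APC, fell to 11.1, 11.8 and 11.8 CPM in shUTX cells, against 20.1, 18.1 and 18.8 CPM in shControl cells.

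Genes of the epidermal barrier moved in both directions, with 2 of 12 higher and 3 lower, or 3 higher and 1 lower without the untreated shControl library. TINCR, a transcript needed for terminal differentiation of human keratinocytes, held 30.12, 50.01 and 28.97 CPM in shUTX cells, against 6.96, 6.40 and 5.43 CPM in shControl cells (log2 2.52 ± 0.18 SE, edgeR adjusted p = 2.61e-07). ACER2, the Golgi alkaline ceramidase, held 27.0, 36.0 and 26.9 CPM in shUTX cells, against 9.75, 15.3 and 11.6 CPM in shControl cells. Both shUTX groups lay wholly above shControl, yet the other knockdowns held 20.8 to 65.9 CPM of TINCR and 19.4 to 25.4 CPM of ACER2. Against their mean TINCR did not pass in shUTX cells (log2 -0.12, edgeR adjusted p = 0.573), and ACER2 was higher by 0.44. The desmosomal PKP3 and the tight-junction TJP3 passed as lower, at log2 -0.32 and -0.58, but neither passed without the untreated shControl library (edgeR adjusted p = 0.103 and 0.125). AQP3, a channel of basal keratinocytes for water and glycerol, held 223, 243 and 241 CPM in shUTX cells, against 291, 197 and 212 CPM in shControl cells, which overlap.

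IL7R, the interleukin 7 receptor chain that also serves the TSLP receptor, held 248, 283 and 222 CPM in shUTX cells, against 504, 607 and 556 CPM in shControl cells (log2 -1.15 ± 0.09 SE, edgeR adjusted p = 8.30e-07). FYB1, an adaptor of immune-cell adhesion, held 193, 212 and 188 CPM in shUTX cells, against 434, 524 and 509 CPM in shControl cells (log2 -1.30 ± 0.08 SE, edgeR adjusted p = 7.29e-08). Both genes thus fell by a similar amount with no overlap, and both stood on the lymphocyte list, of which the other 2 members were at or near 0 in every library. In bulk libraries fewer cells that express a gene and less RNA of it per cell cannot be told apart.

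Interferon-linked and innate sensing genes were lower in 7 of 10 and higher in 1, beside 24.8% and 15.2% of all named entries. Their median log2 change was -0.75. Without the untreated shControl library 6 fell, and 5 fell with the length trend removed. The IFITM genes, which block entry of enveloped viruses, lie side by side on chromosome 11. IFITM2 held 67.7, 79.7 and 81.2 CPM in shUTX cells, against 340.3, 222 and 227 CPM in shControl cells (log2 -1.77 ± 0.14 SE, edgeR adjusted p = 5.98e-07). IFITM1 held 125, 123 and 132 CPM in shUTX cells, against 297, 191 and 218 CPM in shControl cells. IFITM3 held 1001, 1070.5 and 1006 CPM in shUTX cells, against 2395, 1456 and 1629 CPM in shControl cells. The 3 genes are close paralogs and the annotated IFITM1 and IFITM2 overlap, so the split of reads between them is uncertain, but each of the 3 had its groups apart. The RNA sensor RIGI fell to 21.3, 27.4 and 20.5 CPM in shUTX cells, against 45.0, 39.6 and 45.8 CPM in shControl cells (log2 -0.92 ± 0.15 SE). CARD6 and SIGIRR were lower by log2 -0.68 and -0.45. IRF7, the factor that amplifies type I interferon, passed as lower at -0.47 with overlapping groups, and not without the untreated shControl library (edgeR adjusted p = 0.0981). TICAM1, the adaptor of TLR3, was the single member that rose, at log2 0.33.

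Cytokines and receptors had 2 of 10 members higher and 3 lower. CCL28, a mucosal and epidermal chemokine, held 58.3, 63.4 and 61.6 CPM in shUTX cells, against 29.9, 34.8 and 32.6 CPM in shControl cells (log2 0.91 ± 0.11 SE, edgeR adjusted p = 3.02e-05). PRLR, the prolactin receptor, was at 3.45, 4.91 and 2.99 CPM in shUTX cells, against 0.773, 1.07 and 1.67 CPM in shControl cells. LIFR and OSMR, receptor chains of the interleukin 6 family, did not pass, at log2 -0.00 and 0.02. IL11RA fell to 1.73, 1.05 and 1.57 CPM in shUTX cells, against 4.18, 4.53 and 5.01 CPM in shControl cells; it overlaps other genes on its stretch and is uncertain.

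The strongest increases outside these lists were in genes of signalling and structure. ARHGAP28, a GTPase-activating protein for RhoA (chromosome 18, 6729718 to 6915716), held 10.2, 11.1 and 11.02 CPM in shUTX cells, against 1.08, 0.666 and 0.835 CPM in shControl cells, a 12.4-fold increase (log2 3.64 ± 0.33 SE, edgeR adjusted p = 2.68e-06). The other knockdowns held 0.165 to 1.44 CPM, so the shUTX libraries were the high ones of all 12. PLCXD3, a member of the phospholipase C X-domain family, held 25.5, 34.7 and 26.6 CPM in shUTX cells, against 2.78, 4.26 and 3.76 CPM in shControl cells and 2.74 to 5.66 CPM in the other knockdowns. It too was high in shUTX cells alone, with log2 2.99 ± 0.24 SE against shControl. MTCL1, which crosslinks microtubules, held 37.0, 39.8 and 39.7 CPM in shUTX cells, against 15.9, 17.1 and 19.8 CPM in shControl cells. TERT, the catalytic subunit of telomerase, held 19.9, 21.9 and 19.4 CPM in shUTX cells, against 11.8, 13.1 and 8.63 CPM in shControl cells (log2 0.89 ± 0.17 SE). Also among the 15 highest were UBAP2, ANKRD33B, OTULINL, the pseudogene HSPD1P1 and ENSG00000260912, at log2 0.78 to 1.28. OTULINL passed in 16 of 22 alternatives and lost its call with DESeq2 among others (DESeq2 adjusted p = 0.136). HSPD1P1 shares sequence with its parent gene HSPD1, so its reads are uncertain.

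Among genes of the cytoskeleton, 2 of 16 rose and 4 fell, and without the untreated shControl library 3 rose and 3 fell. The microtubule gene TUBB6 fell to 114, 118 and 106 CPM in shUTX cells, against 219.7, 159 and 167 CPM in shControl cells (log2 -0.68 ± 0.10 SE). The tropomyosin TPM2 fell to 13.4, 12.1 and 13.7 CPM in shUTX cells, against 36.0, 28.0 and 23.1 CPM in shControl cells (log2 -1.14 ± 0.18 SE). Talin 1 (TLN1), which links integrins to actin, was lower by log2 -0.34. The myosin light chains MYL12A and MYL12B, LMNB2 and CNN2 did not pass, at log2 0.21, -0.08, 0.01 and -0.01.

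In the matrix and protease list 4 of 9 members fell and none rose, beside 24.8% and 15.2% of all named entries. RECK, a membrane-anchored inhibitor of matrix metalloproteinases, held 4.03, 4.21 and 3.46 CPM in shUTX cells, against 12.2, 9.86 and 9.46 CPM in shControl cells (log2 -1.42 ± 0.19 SE). ADAMTSL5 fell to 9.40, 11.8 and 7.24 CPM in shUTX cells, against 21.8, 18.9 and 15.9 CPM in shControl cells. PCSK4 and TMPRSS9 also fell, at low levels and beside overlapping genes. ADAMTS12, a matrix protease, did not pass against shControl, at 200.3, 263 and 224 CPM in shUTX cells and 152, 239 and 222 CPM in shControl cells.

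Cilium genes had 6 of 9 members lower and none higher, beside 24.8% and 15.2% of all named entries. Their median was -0.96, and the counts were the same without the untreated shControl library and with the length trend removed. The dynein heavy chain DNAH5 held 20.7, 19.7 and 24.1 CPM in shUTX cells, against 38.8, 47.4 and 47.7 CPM in shControl cells (log2 -1.06 ± 0.15 SE, edgeR adjusted p = 0.000121). IFT74, a subunit of the intraflagellar transport complex, held 52.4, 41.9 and 47.6 CPM in shUTX cells, against 109.5, 95.4 and 72.5 CPM in shControl cells (log2 -0.96 ± 0.12 SE). RFX2, given above, is on this list too, and FSD1, LRRC56 and CPLANE1 were lower by log2 -1.19, -1.29 and -0.46. The CPLANE1 groups overlap, at 33.6, 48.4 and 32.9 CPM in shUTX cells and 35.4, 66.9 and 56.9 CPM in shControl cells. IFT74 and LRRC56 each overlap other genes and are uncertain. Against the mean of the other knockdowns DNAH5 did not pass (log2 -0.07, edgeR adjusted p = 0.748), and IFT74 was lower (log2 -0.82).

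**Figure D4:**
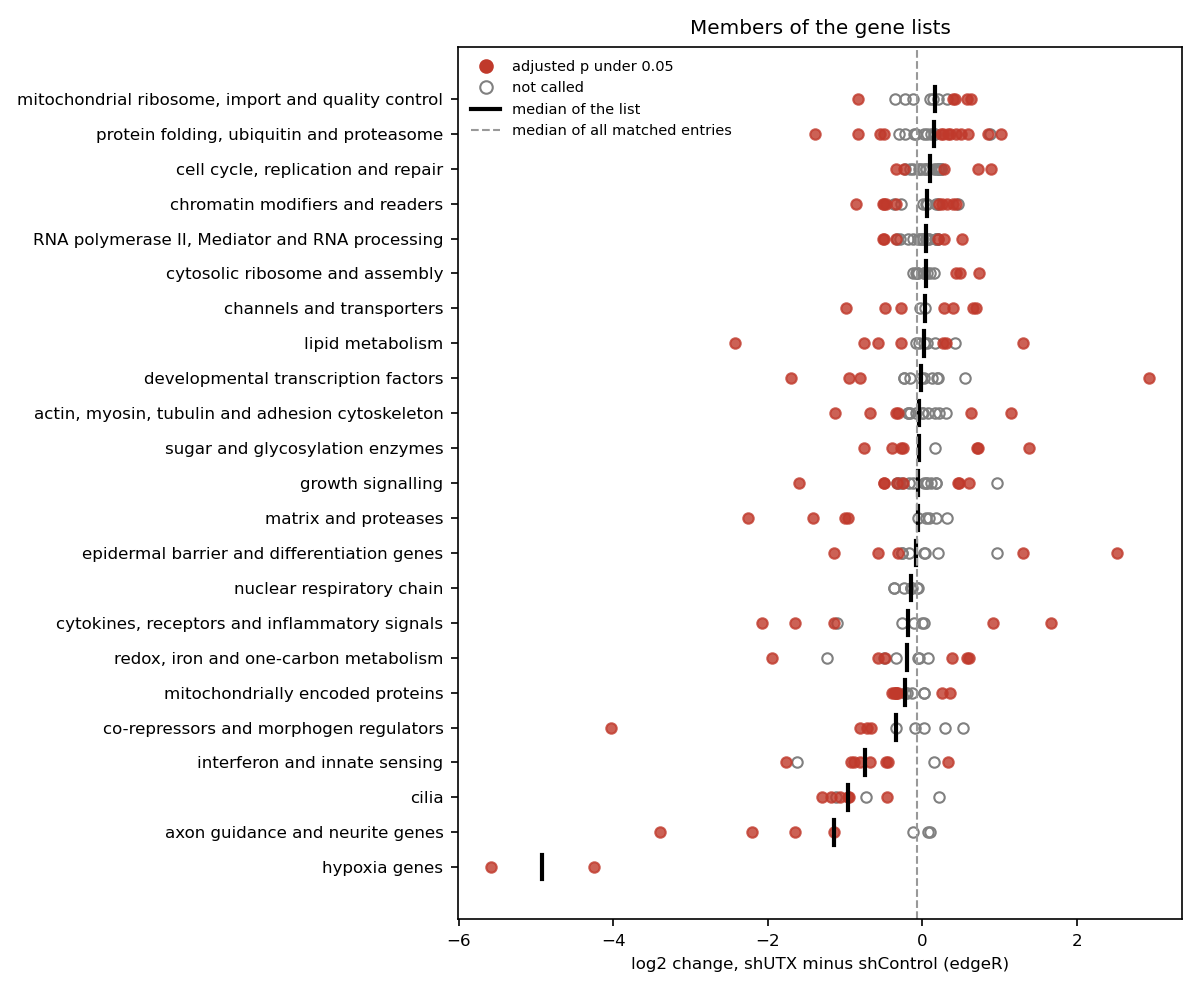
Log2 change of shUTX over shControl (x axis) for the tested members of 23 gene lists (rows), with filled points for entries that passed the threshold, open points for those that did not, a bar at each list's median and a dashed line at the median of all named entries, -0.07. The list medians run from -4.92 (hypoxia, 2 genes) to 0.17 (mitochondrial ribosome and import).

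The mitochondrial genome was split by gene. Of its 13 protein genes 6 were lower in shUTX cells and 2 higher, and 8 were lower and 2 higher without the untreated shControl library. MT-CO1, a core subunit of complex IV, held 17627, 17366 and 16910.5 CPM in shUTX cells, against 23254, 21562 and 21086 CPM in shControl cells (log2 -0.34 ± 0.07 SE, edgeR adjusted p = 0.00358). MT-CO2, MT-CO3, MT-ATP6, MT-ND4 and MT-CYB also fell, by log2 -0.32 to -0.40. The genes nearest the promoter end of the heavy strand went the other way: MT-ND1 and MT-ND2, subunits of complex I, rose by log2 0.25 and 0.36, and the ribosomal RNAs MT-RNR1 and MT-RNR2 by 0.66 and 0.24. The proline tRNA MT-TP also rose, by 0.53. MT-RNR1 held 3170.1, 3345 and 3066 CPM in shUTX cells, against 2402, 2135 and 1597 CPM in shControl cells. In the fit to the 6 libraries alone MT-CO1, MT-CO2, MT-ATP6 and MT-CYB did not pass (edgeR adjusted p = 0.113, 0.104, 0.0636 and 0.0925). The mitochondrial share of all counts was 8.31%, 8.72% and 8.20% in the shUTX libraries and 9.30%, 10.01% and 9.15% in the shControl libraries.

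None of the 8 nuclear genes of the respiratory chain passed by edgeR, DESeq2 or limma-voom, although 2 had an unadjusted edgeR p under 0.05. These 2, NDUFS7 and ATP5F1D, passed as lower in 6 and 2 of 23 alternatives, among them the fit with no filter on low counts and, for NDUFS7 (adjusted p = 0.0380), that with the length trend removed. NDUFS7 of complex I held 159, 153 and 159 CPM in shUTX cells, against 287, 159 and 176 CPM in shControl cells, where only the untreated library was high. Their median log2 change was -0.15, and 0.04 without that library. Genes of the mitochondrial ribosome, import and quality control had 4 of 12 higher and 1 lower. TOMM5, a small subunit of the outer-membrane translocase, held 182, 166 and 185 CPM in shUTX cells, against 132, 115 and 98.7 CPM in shControl cells (log2 0.63 ± 0.10 SE). FASTKD3, an RNA-binding protein of mitochondria, MRPS30 and the glutamate carrier SLC25A22 rose by log2 0.57, 0.42 and 0.40 (MRPS30 not with the length trend removed, edgeR adjusted p = 0.0511), and HINT2 fell by 0.83 on the log2 scale. Without the untreated shControl library 8 of the 12 rose and 1 fell.

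Cytosolic ribosome and assembly genes had 3 of 12 higher and none lower. NOL6, which acts in pre-rRNA processing, held 683, 684 and 691 CPM in shUTX cells, against 403, 408 and 424 CPM in shControl cells (log2 0.74 ± 0.07 SE, edgeR adjusted p = 7.27e-06). The RNA methyltransferase NSUN2 held 1016, 1034 and 1009 CPM in shUTX cells, against 794, 727 and 672 CPM in shControl cells, and the assembly factor BRIX1 rose by log2 0.43. The ribosomal proteins RPL37, RPLP2, RPS15 and RPL36 did not pass, at log2 0.01, -0.07, -0.06 and -0.09.

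In the cell-cycle and repair list 3 of 20 were higher and 2 lower, with 15 that did not pass. The counts were 7 higher and 3 lower without the untreated shControl library, and 5 higher and 3 lower with the length trend removed. CDKN2B, which encodes the CDK4/6 inhibitor p15, held 126, 174 and 126 CPM in shUTX cells, against 88.0, 99.0 and 72.0 CPM in shControl cells and 29.2 to 92.7 CPM in the other knockdowns (log2 0.71 ± 0.09 SE against shControl). It overlaps the antisense transcript CDKN2B-AS1. CDKN2A, its neighbour, held 211, 239 and 228 CPM in shUTX cells, against 304, 194 and 171 CPM in shControl cells, and did not pass (edgeR adjusted p = 0.861). SKP2, an F-box protein that targets p27, and FZR1, an activator of the anaphase-promoting complex, were lower by log2 -0.24 and -0.35; neither passed in the fit to the 6 libraries alone (edgeR adjusted p = 0.203 and 0.1).

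Metabolic lists moved both ways. Of 8 enzymes of sugar and glycosylation 3 rose and 4 fell. GNE, which starts the synthesis of sialic acid, held 169, 202 and 172 CPM in shUTX cells, against 70.8, 74.2 and 65.0 CPM in shControl cells (log2 1.37 ± 0.09 SE, edgeR adjusted p = 7.29e-08), and the other knockdowns held 85.9 to 98.5 CPM. GNE overlaps CLTA on the other strand. PGGHG, which removes glucose from collagen, was lower by log2 -0.76 and B4GALT1 by -0.28. FUT3, a fucosyltransferase with close paralogs, was higher by 0.71 and passed in 20 of 23 alternatives.

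Of 13 lipid genes 3 rose and 4 fell, and 5 rose and 4 fell without the untreated shControl library. Besides PLIN4, its relative PLIN3 fell to 303, 321 and 301 CPM in shUTX cells, against 539, 409.7 and 443 CPM in shControl cells (log2 -0.58 ± 0.09 SE), and the lipid transporter ABCA7 to 56.4, 69.0 and 62.8 CPM in shUTX cells, against 98.5, 108 and 111 CPM in shControl cells. HMGCS1, an enzyme of the mevalonate pathway, did not pass, at log2 -0.09. Of 12 genes of redox, iron and one-carbon metabolism 3 rose and 3 fell, and 4 rose and 3 fell without the untreated shControl library. GAMT, the last enzyme of creatine synthesis, held 6.91, 7.02 and 6.30 CPM in shUTX cells, against 32.6, 26.4 and 19.8 CPM in shControl cells (log2 -1.94 ± 0.20 SE, edgeR adjusted p = 7.44e-06). MTAP and MTRR, both of the methionine cycle, rose by log2 0.60 and 0.58, and ACO1, which doubles as an iron sensor, fell by 0.48 on the log2 scale. GPX4, which reduces lipid peroxides, held 805, 761 and 646 CPM in shUTX cells, against 661, 1052 and 1141 CPM in shControl cells, which overlap.

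Channels and transporters had 4 of 9 higher and 3 lower. The scramblase ANO9 held 47.6, 57.6 and 51.5 CPM in shUTX cells, against 109, 97.7 and 104 CPM in shControl cells (log2 -0.99 ± 0.10 SE, edgeR adjusted p = 5.46e-06). The potassium-chloride cotransporter SLC12A7 held 247, 301 and 268 CPM in shUTX cells, against 164, 178 and 176 CPM in shControl cells (log2 0.65 ± 0.08 SE). The sodium-proton exchanger SLC9A3 was higher by log2 0.70, and the phosphate and ATP transporter ANKH lower by -0.48.

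Growth signalling had 3 of 20 higher and 5 lower, which became 5 higher and 3 lower without the untreated shControl library. MOB3A, a relative of the Hippo-pathway MOB1 proteins, held 87.1, 80.7 and 82.7 CPM in shUTX cells, against 266, 253 and 237 CPM in shControl cells (log2 -1.59 ± 0.08 SE, edgeR adjusted p = 5.29e-09), with 125 to 175 CPM in the other knockdowns. It overlaps IZUMO4 on the other strand. PRKAA1, a catalytic subunit of AMP-activated kinase, and RICTOR, a subunit of mTORC2, were higher by log2 0.60 and 0.47, and GNA15 and RAB31 lower by -0.50 and -0.49. HRAS and MAP2K2 did not pass, at log2 -0.33 and 0.05.

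Genes of protein folding, ubiquitin and the proteasome had 9 of 23 higher and 4 lower, beside 15.2% and 24.8% of all named entries. Their median was 0.15, with 12 higher and 4 lower without the untreated shControl library. UBAP2 held 393, 413 and 395 CPM in shUTX cells, against 192, 238 and 241 CPM in shControl cells (log2 0.84 ± 0.09 SE, edgeR adjusted p = 9.25e-06), and the HSP70 cochaperone DNAJA1 1722, 1592 and 1643 CPM in shUTX cells, against 1273, 1089 and 935 CPM in shControl cells. CHMP5, of the ESCRT-III complex, fell to 124, 118 and 119 CPM in shUTX cells, against 259.6, 195 and 191 CPM in shControl cells. Of 23 genes of RNA polymerase II, Mediator and RNA processing 3 rose and 3 fell, each at or under 0.51 in size: NUP155 at log2 0.51, CIRBP at -0.51, MED16 at -0.50 and GTF2F1 at -0.34. Here too the balance rested on 1 library, with 7 higher and 3 lower without the untreated shControl library.

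By stretch, the balance of higher and lower calls differed, where over all named entries 15.2% were higher and 24.8% lower. On chromosome 19 9 of 158 entries were higher in shUTX cells and 47 lower, with a median log2 change of -0.18, and on chromosome 11 4 of 38 were higher and 13 lower. On chromosomes 5 and 9 the counts were 30 of 137 higher and 20 lower, and 23 of 102 higher and 26 lower. Chromosome 18 had 3 of 37 higher and 9 lower. Without the untreated shControl library the counts on chromosome 19 were 19 higher and 39 lower, and those on chromosome 11 were 9 higher and 10 lower. The counts became 39 and 22 on chromosome 5, 30 and 27 on chromosome 9, and 4 and 8 on chromosome 18.

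The shUTX libraries were also set against the mean of the shMLL1 and shNRF2 libraries, which leaves the shControl libraries out of the contrast. Of the 488 named entries 204 passed (41.8%, against 23.3% of all entries), 114 higher and 90 lower in shUTX cells. Both comparisons share the shUTX libraries, so their calls are not independent. SEMA6B, LRG1, PTPRS, GAMT and IFITM2 had log2 -2.48, -2.16, -1.93, -1.65 and -1.80 against the other knockdowns, and ARHGAP28 and PLCXD3 had 3.89 and 2.71. IFITM1 and IFITM3, at 311 to 355 and 2146 to 2462 CPM in the other knockdowns, had log2 -1.37 and -1.12. The largest increases were PRLR (log2 4.75), MIR4458HG (4.36), OTULINL (3.99), ARHGAP28 and SPEF2 (2.99). For PRLR, MIR4458HG, OTULINL and SPEF2 some of the other knockdowns had no count, so those estimates depend on the prior count and are no measure of size. At the low end ENSG00000274447, an antisense entry within PTPRS, had no count in the 3 shUTX libraries, against 0.576 to 2.69 CPM in the other knockdowns.

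Whether the difference between shUTX and shControl depended on exposure was tested with a term for exposure to either agent in each knockdown, an exploratory fit with 3 residual degrees of freedom. In 108 of 488 named entries (22.1%, against 14.4% of all entries) the difference changed. The shUTX level was relatively higher after exposure in 94 (19.3%, against 6.80% of all entries) and relatively lower in 14 (2.87%, against 7.59%). Over the 94 entries the median log2 ratio of shUTX to shControl was -0.52 untreated, 0.05 after H2O2 and 0.11 after CeO2. The shUTX libraries themselves hardly moved over these 94 entries, with a median log2 ratio of exposed to untreated of -0.00 (H2O2) and 0.04 (CeO2), whereas in shControl cells it was -0.56 and -0.57. Over all 488 named entries the same medians were -0.02 and -0.00 in shUTX cells and -0.18 and -0.24 in shControl cells. The 94 entries were chosen by this difference in the same libraries, so a gap between the derivatives follows from the choice. The 94 entries had a median transcript length of 1990 bases, the 14 entries one of 8056 bases, and all named entries 2789 bases. In the untreated shControl library levels relative to the mean of the 12 libraries fell with transcript length, as described above. It is the single untreated library of its derivative, so its part in these calls and a response to exposure cannot be told apart. With the length trend removed from each library 75 entries passed, 72 of them relatively higher after exposure. The share over all entries was not taken for that fit.

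**Figure D5:**
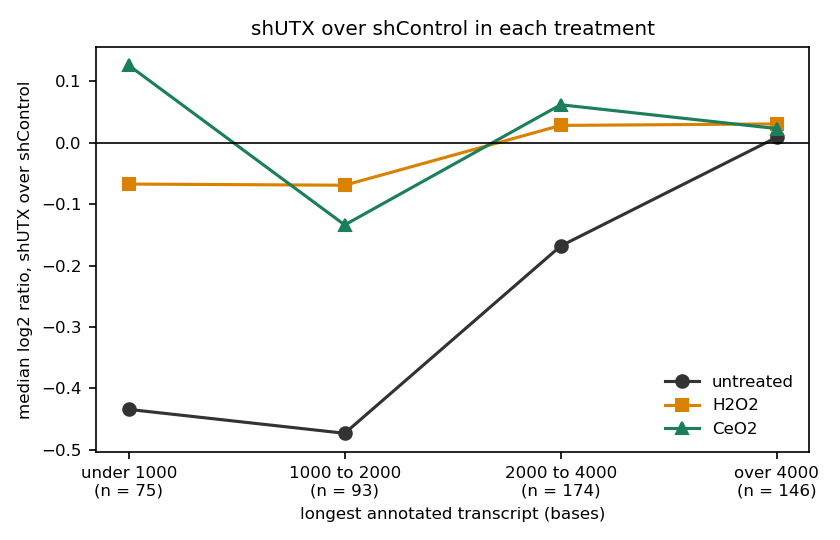
Median log2 ratio of shUTX to shControl (y axis, pseudocount 1 CPM) in classes of longest annotated transcript (x axis, with the number of named entries tested), 1 line for each treatment. The untreated pair gives -0.43 for transcripts under 1000 bases and 0.01 over 4000 bases, while the H2O2 and CeO2 pairs stay between -0.13 and 0.13.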

How the data were processed

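Per the labels' protocols, total RNA went into TruSeq libraries. The submitters' processing notes name Trimmomatic 0.39, the aligner HISAT2 2.2.1, SAMtools 1.12, the counter HTSeq 0.11.1 and the build GRCh38. Settings, annotation and strand use: not given in the sources used here. As deposited, the tables (1 for each agent, equal in the untreated libraries but for 1 cell) hold whole read counts per Ensembl gene.

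Untreated counts came from the H2O2 table. Of 61498 entries 61399 had a name and 58298 a GENCODE 29 position and length. The filter kept 10800 entries with 1 CPM in at least 3 of 12 libraries. They were fitted with edgeR 4.0.16 in R 4.3.3 (TMM, quasi-likelihood F test, two-sided, Benjamini-Hochberg over all entries, threshold 0.05) with derivative and treatment as additive terms, leaving 6 residual degrees of freedom. SE is the absolute log2 change over the square root of F. The code was tested on simulated counts.

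The comparison, stretches, lists and naming rule were chosen with earlier results of these data known. The rule names the 15 highest and 15 lowest called entries (mean CPM of 5 or more, 1 sign in all treatments), up to 4 members per list by smallest p for 23 lists, and 5 from each end of the other 2 contrasts. One gene that the rule names is not reported here. Other entries given, such as FYB1 and the mitochondrial RNAs, were chosen after their values were seen. Alternatives were other scalings and filters, DESeq2 1.42.0, limma 3.58.1 (voom), libraries left out, and removal of a spline trend with transcript length over 365 coding genes, whose use on the lists and on the other 2 contrasts was added after seeing the data. That trend was removed from entries of the 5 stretches only, and all other entries were left as they were.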

Additional observations from a re-analysis of the deposited data

Results flagged for a closer look

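In 108 of the 488 named entries the difference between shUTX and shControl was not the same in exposed and untreated libraries (edgeR quasi-likelihood test of the difference itself, adjusted p under 0.05, 3 residual degrees of freedom). That is 22.1%, against 14.4% of all entries tested. The values below are the log2 shUTX effect after exposure minus that in untreated cells. Among genes given by the naming rule it was positive for TJP3 (1.03), RPP25L (1.02), ADAT3 (1.01), GADD45B (0.90), MRPL54 (0.90), ATP5F1D (0.88), HINT2 (0.87), IFITM2 (0.85), NDUFA11 (0.84), NDUFS7 (0.75), IFITM3 (0.69), TLE5 (0.66), IFITM1 (0.57), MED16 (0.52), PKP3 (0.51) and GTF2F1 (0.35). It was negative for GPX4 (-0.93), PDZD2 (-0.66), KIF24 (-0.63), LIFR (-0.63), LMBRD2 (-0.63) and PRKAA1 (-0.41). With the length trend removed PDZD2, LIFR, LMBRD2 and KIF24 went to -0.18, -0.20, -0.28 and -0.39 and did not pass (edgeR adjusted p = 0.447, 0.452, 0.373 and 0.125), nor did ADAT3, at 0.77 (edgeR adjusted p = 0.0688), while GPX4 was at -1.23 and passed. LMBRD2 passed in 4 of 10 alternatives.

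The tRNA deaminase subunit ADAT3 shows the common form. It held 16.3, 19.8 and 17.6 CPM in untreated, H2O2 and CeO2 shUTX cells, against 30.9, 17.6 and 17.5 CPM in shControl cells, so the groups differ in the untreated pair only. GPX4 shows the other form, with 805, 761 and 646 CPM in shUTX cells, against 661, 1052 and 1141 CPM in shControl cells, where it was higher in both exposed libraries. The untreated shControl library enters every one of these values, and a response to exposure cannot be told apart from its part in them. Removing the length trend left 75 named entries called, GPX4 among them, and no share over all entries was taken for that fit.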

How the results depend on the processing

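The count of 2842 entries over the whole table (195 of the named entries) ran from 2319 to 2851 (171 to 210) under RLE, upper-quartile and plain-total scaling, other filters, DESeq2, limma-voom, untreated counts from the CeO2 table, and the fit without treatment as a block. No replicate block other than treatment was possible, since replicate numbers are all 1; without it 2319 entries over the table and 171 named ones passed. The fit to the 6 compared libraries gave 1427 and 117, with fewer libraries behind the spread. Leaving out single libraries gave 1931 to 3088 entries and 152 to 220 named ones, and 152 to 202 against the other knockdowns (204 in full). For the difference by exposure only exposed shUTX and shControl libraries were left out, which gave 75 to 145 (108 in full). The untreated shControl library could not be left out there, since the comparison needs it. Of 117 single results 115 kept their sign under all alternatives, and of the 112 that passed 89 passed under all. NDUFV2 was -0.15 and became 0.054 with the length trend removed. NDUFA11 was -0.24 and ran from -0.414 to 0.012 when single libraries were left out, with 0.012 without the untreated shControl library. Neither passed in any of these, and the cause was not tested. Low entries such as CA9 in shUTX cells rest on under 10 counts a library, which limits the size of their folds.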
